A study of Mus musculus with 5 samples.

Results

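Cilp/Thbs4 fibroblasts of mouse ventral skin are described here, a small class of cells chosen by their transcripts from single-cell RNA-seq (10x 3' v2 chemistry). A UMI (unique molecular identifier) counts 1 captured transcript, and barcodes were kept that held 300 or more genes and no more than 10% of their UMIs from mitochondrial genes. A fibroblast was a kept barcode with at least 1% of its UMIs from Col1a1, Col1a2, Col3a1 and Dcn and no UMI of the leukocyte gene Ptprc. A Cilp/Thbs4 fibroblast had, in addition, at least 3 UMIs of Cilp and Thbs4 together, under 2 UMIs of Pi16 and Dpp4 together, and no Col6a5 UMI. There were 281 such cells among 5545 fibroblasts (5.07%) and 10611 kept barcodes. They are compared below with the 3181 fibroblasts that met the same exclusions on Pi16, Dpp4 and Col6a5 but had fewer than 3 Cilp and Thbs4 UMIs, called the other fibroblasts.

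The libraries came from C57BL/6J mice at postnatal day 28, each from a pool of 2 mice. The Ikkb_cKO group (3 libraries) carried Prx1Cre and floxed Ikkb alleles (Prx1Cre+Ikkbf/f), and the WT group (2 libraries) was wild type with no allele or agent named. Ikkb, in current nomenclature Ikbkb, encodes the kinase IKKβ, which frees NF-kB from its inhibitors, and Prx1Cre expresses the recombinase from a Prrx1 enhancer active in limb and ventral mesenchyme, so it is not directed to epidermis or blood cells. Skin was dissociated and sorted only to remove debris, dead cells and aggregates. The labels do not say whether the WT mice carried Cre or were littermates, and nothing names separate dates or batches, so the p-values measure the spread between these libraries.

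Fibroblasts build the extracellular matrix of the dermis: collagen fibrils for strength and elastic fibres for recoil. An elastic fibre has a core of cross-linked elastin laid on a scaffold of fibrillin microfibrils, with accessory proteins (MFAPs, fibulins, LTBPs) that guide assembly and lysyl oxidases that make the cross-links. CILP (cartilage intermediate layer protein) is a secreted matrix protein known from cartilage that binds TGF-beta, and thrombospondin-4 is a calcium-binding matrix glycoprotein of tendon and connective tissue that binds collagens.

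Ikbkb, the targeted gene, summed over all fibroblasts of a library had 16.2, 20.6 and 15.5 normalised CPM in Ikkb_cKO and 15.2 and 19.1 in WT (log2 fold change 0.00, SE 0.23, edgeR adjusted p = 0.992). Since 3' tags need not lie in the deleted part of the gene, this level checks neither the deletion nor the labels. In Ikkb_cKO libraries 1, 2 and 3 the class had 11, 12 and 60 cells with 23504, 30273 and 231547 UMIs in all, against 81 and 117 cells with 472725 and 681001 UMIs in WT libraries 1 and 2. The median member held 1766, 1626 and 3678 UMIs in Ikkb_cKO, against 5019 and 5477 in WT, so the Ikkb_cKO cells were shallower in every library. Their median mitochondrial share was 3.51 ± 0.118% in Ikkb_cKO (SD, n = 3) and 2.12 ± 0.0188% in WT (SD, n = 2). No member's barcode occurred in a second library. Ikkb_cKO library 3 stood apart from the other Ikkb_cKO libraries: Coch, which encodes the matrix protein cochlin, had 159 UMIs there in 24 of 60 members (40%), and 0 UMIs in the 11 and 12 members of Ikkb_cKO libraries 1 and 2, which allows shares of up to 27.3% and 25% (3 cells, counting error only). In WT, Coch had 0 UMIs in library 1 and 5 in library 2. This library is named below wherever leaving it out ends a call. After each cell was thinned to 1000 UMIs, the Coch share in Ikkb_cKO library 3 was 26.7%, inside the limit for library 1. These limits are on cells with a UMI, in libraries whose members were shallower. Markers of other cell types were present at low levels. Summed myeloid markers stood at 0 to 66.1 CPM (the gene's part of all UMIs summed over the class in that library) in Ikkb_cKO and 51.4 to 169 CPM in WT, and endothelial markers at 0 to 8.64 CPM in Ikkb_cKO and 50.8 to 55.8 CPM in WT. Mural markers summed to 128 to 363 CPM in Ikkb_cKO and 176 to 178 CPM in WT. Lymphocyte markers summed to 298 to 846 CPM in Ikkb_cKO and 546 to 605 CPM in WT, with Cd3e, Cd3d, Cd3g and Il7r at 0 UMIs, and to 260 to 878 CPM and 621 to 672 CPM in the other fibroblasts. Members with under 3 UMIs of the other lineages' markers numbered 9, 10 and 28 in Ikkb_cKO and 38 and 37 in WT. Skeletal muscle markers summed to 4.32 to 42.5 CPM in Ikkb_cKO and 59.2 to 1239 CPM in WT, and 824 muscle UMIs in WT library 2 came from 1 member. Leaving out the 2 members with at least 10 muscle UMIs left 392 genes called in the genotype test described below.

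The genes of the rule were high in every library, which the rule fixed. Cilp (chromosome 9) stood at 2255, 2709 and 1766 CPM in members of Ikkb_cKO libraries 1, 2 and 3 and 1483 and 1242 CPM in those of WT libraries 1 and 2. Thbs4 (chromosome 13) stood at 1787, 1222 and 324 CPM in Ikkb_cKO and 1142 and 921 CPM in WT. Ikkb_cKO library 3 was the lowest for Thbs4. Most members qualified by Cilp: 163 held Cilp UMIs only, 18 held Thbs4 UMIs only and 100 held both. At the edge of the rule, 51 members had exactly 3 Cilp and Thbs4 UMIs and 75 fibroblasts with the same exclusions had 2. Of all fibroblasts with at least 3 such UMIs (570 cells), 277 were left out for Pi16 or Dpp4 and 19 for Col6a5, with 7 cells counted under both. The background was low: 11 of 2265 immune cells (0.486%) held any Cilp or Thbs4 UMI, and 14 of 5066 cells that were not fibroblasts (0.276%) held 3 or more.

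The other markers of the label, Eln and Mfap4, were not used by the rule and were high in the members. Eln encodes elastin, the core of the elastic fibre (chromosome 5, 134702593 to 134747323, minus strand, GRCm38). It stood at 2851, 11661 and 5148 CPM in Ikkb_cKO members and 1701 and 2282 CPM in WT members. The other fibroblasts had 307, 357 and 1138 CPM in Ikkb_cKO and 368 and 416 CPM in WT. Members were above the other fibroblasts in all 5 libraries, with a median log2 difference of 2.45. In Ikkb_cKO library 2, 211 of the 353 Eln UMIs lay in 1 cell. Mfap4, a microfibril-associated glycoprotein that binds elastin and fibrillin, had 1234, 1718 and 3554 CPM in Ikkb_cKO members and 2333 and 2263 CPM in WT members. The other fibroblasts had 179, 229 and 1077 CPM in Ikkb_cKO and 249 and 293 CPM in WT, a median log2 difference of 2.90. By cells, an Eln UMI was found in 90.9%, 83.3% and 88.3% of Ikkb_cKO members and 84.0% and 80.3% of WT members, and a Mfap4 UMI in 72.7%, 75% and 90% of Ikkb_cKO members and 76.5% and 81.2% of WT members. In immune cells these shares reached at most 2.73% for Eln and 2.28% for Mfap4. Against fibroblasts with Pi16 or Dpp4, Mfap4 was higher in members of all 5 libraries but by less (median log2 0.38), and Eln was higher in 4 of 5 (median 0.96), so both genes separate the members from that class by less than from the other fibroblasts. Tendon and cartilage identities were checked by their markers. The tendon regulators Scx and Mkx had 0, 0 and 1 UMIs and 0, 0 and 5 UMIs in Ikkb_cKO members and 0 and 1 and 0 and 2 UMIs in WT members. The tendon gene Tnmd had 0, 0 and 23 UMIs in Ikkb_cKO and 4 and 5 in WT. Summed cartilage markers stood at 0 to 33.0 CPM in Ikkb_cKO and 22.0 to 48.7 CPM in WT.

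**Figure D1:**
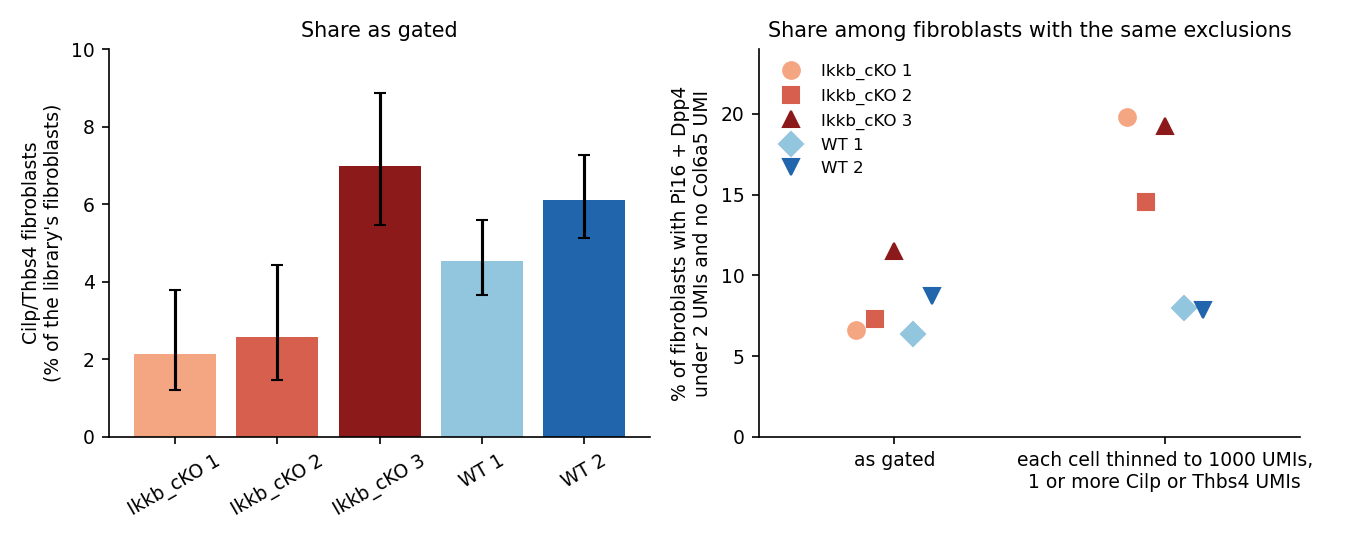
Left, Cilp/Thbs4 fibroblasts as a percentage of each library's fibroblasts, with bars for the value and lines for the 95% Wilson interval. Right, the share among fibroblasts with the same exclusions (%), as gated and after each cell was thinned to 1000 UMIs, 1 point per library. The exclusions used the full counts throughout, so depth still enters the thinned share. After thinning the 3 Ikkb_cKO libraries sit between 14.6% and 19.8%, above the WT libraries at 8.0% and 7.84%.

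The share of the class among fibroblasts did not separate the genotypes, and its direction changed with the denominator and with a thinned count that also used a lower gate. As gated it was 2.14%, 2.57% and 6.98% in Ikkb_cKO libraries 1, 2 and 3 and 4.53% and 6.11% in WT libraries 1 and 2. The 95% Wilson intervals, which cover counting error only, were 1.20% to 3.80%, 1.48% to 4.44% and 5.46% to 8.88% in Ikkb_cKO, and 3.66% to 5.59% and 5.12% to 7.27% in WT. Ikkb_cKO library 3 lay above both WT libraries and the others below. The means were 3.90 ± 2.68% (SD, n = 3) and 5.32 ± 1.12% (SD, n = 2), with p = 0.6 in a two-sided exact permutation test over libraries, whose smallest possible p is 0.1. The exclusions took unequal parts of the fibroblasts: those with a Col6a5 UMI made up 65.7%, 63.0% and 22.3% in Ikkb_cKO and 0.782% and 0.574% in WT. Among fibroblasts with the same exclusions the share was 6.63%, 7.32% and 11.5% in Ikkb_cKO and 6.38% and 8.72% in WT (exact permutation p = 0.8). When each cell was thinned to 1000 UMIs and a cell counted with 1 Cilp or Thbs4 UMI, that share was 19.8%, 14.6% and 19.2% in Ikkb_cKO and 8.0% and 7.84% in WT. The means were 17.9 ± 2.86% (n = 3) and 7.92 ± 0.117% (n = 2), without overlap, at the smallest p the exact permutation test allows, 0.1. Only the Cilp and Thbs4 counts were thinned. The exclusions on Pi16, Dpp4 and Col6a5 used the full counts, which excluded a deeper cell more easily, so depth still enters this share. Thinning left out 382 Ikkb_cKO and 171 WT fibroblasts of under 1000 UMIs. Over all fibroblasts the thinned share was 4.85%, 4.16% and 10.9% in Ikkb_cKO and 5.58% and 5.41% in WT (exact permutation p = 1).

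Beside Eln and Mfap4, several other elastic fibre genes were higher in the members. Of 1560 genes at 100 CPM or more in either class, 140 (8.97%) were higher and 191 (12.2%) were lower in members than in other fibroblasts in every library. This contrast follows from the choice of cells and is given without a test. In the elastic fibre list, 7 of 21 genes were higher in all 5 libraries: Eln, Mfap4, Fbn1 (fibrillin-1, the microfibril backbone), Fbln1 and Fbln5 (fibulins, of which fibulin-5 brings elastin to microfibrils), Ltbp4 (a scaffold of elastin assembly and latent TGF-beta) and Lox (lysyl oxidase, which cross-links elastin and collagen). Lox had 979, 925 and 462 CPM in Ikkb_cKO members and 305 and 320 CPM in WT members, with a median log2 difference of 1.73 from the other fibroblasts. Ltbp4 (median 1.35) and Fbn1 (median 0.79) differed by less. Efemp1 (fibulin-3) was lower in members in all 5 libraries (median -2.11), at 42.5, 66.1 and 311 CPM in Ikkb_cKO members and 114 and 131 CPM in WT members. Summed over the list, Eln and Mfap4 included, members had 11785, 21273 and 14140 CPM in Ikkb_cKO and 11622 and 12028 CPM in WT. Fibroblasts with Pi16 or Dpp4 had 9290, 11065 and 11981 CPM in Ikkb_cKO and 10298 and 10657 CPM in WT. The other fibroblasts had 4833, 4726 and 7370 CPM in Ikkb_cKO and 6337 and 6378 CPM in WT. The list was thus high in the Pi16 or Dpp4 class too. Other matrix lists were split: of the collagens outside type VI, 3 were higher and 3 lower in all 5 libraries, no collagen VI gene was either, and of the proteases and inhibitors 1 was higher and 2 were lower. For the other thrombospondins the median difference was -0.46 (Thbs1), -0.22 (Thbs2) and 0.64 (Thbs3), none of one sign in all 5 libraries.

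**Figure D2:**
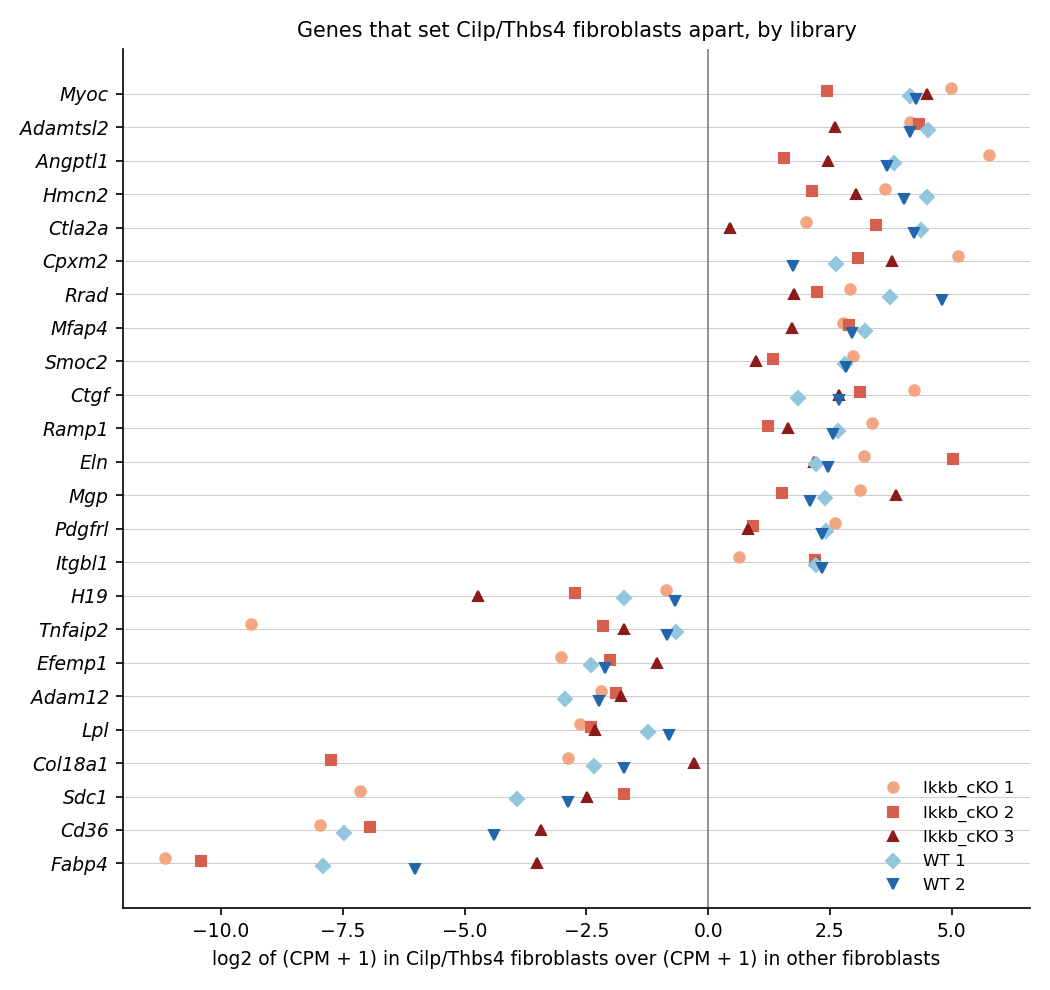
Log2 of CPM + 1 in Cilp/Thbs4 fibroblasts over CPM + 1 in other fibroblasts of the same library, for the genes with the largest and the smallest median difference of one sign (15 higher and 9 lower in members), 1 point per library. Points below -6 come from libraries in which the members held 0 or few UMIs of the gene. Myoc leads with a median of 4.27 and Fabp4 closes at -7.90.

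The gene with the largest difference after those of the rule was Myoc. It encodes myocilin, a secreted glycoprotein known from the outflow tissue of the eye, and stood at 766, 231 and 95 CPM in Ikkb_cKO members and 381 and 382 CPM in WT members, while no library's other fibroblasts exceeded 41.6 CPM. Adamtsl2 (median log2 4.15), Angptl1 (3.67), Hmcn2 (3.64) and Smoc2 (2.82) followed. Adamtsl2 binds fibrillin and LTBP1, Angptl1 is an angiopoietin-like secreted factor, Hmcn2 is a hemicentin of basement membranes and Smoc2 is a calcium-binding matricellular protein. Hmcn2 had 1319, 793 and 203 CPM in Ikkb_cKO members and 569 and 458 CPM in WT members. By cells, Hmcn2 was found in 63.6%, 58.3% and 10% of Ikkb_cKO members and 60.5% and 50.4% of WT members, so Ikkb_cKO library 3 was low in level and in share although its cells were deeper than those of the other Ikkb_cKO libraries. Myoc showed the same order, in 36.4%, 33.3% and 6.67% of Ikkb_cKO members and 46.9% and 41.0% of WT members. In immune cells no library exceeded 0.569% for Hmcn2 or 0.38% for Myoc. Mgp (matrix Gla protein, an inhibitor of calcification) was abundant, at 5063, 2874 and 4215 CPM in Ikkb_cKO members and 1521 and 1302 CPM in WT members (median difference 2.40). Ctgf (a matricellular target of TGF-beta and YAP), Ctla2a (a cathepsin inhibitor), Cpxm2 (a carboxypeptidase-like protein), Rrad (a small GTPase), Ramp1 (a subunit of the CGRP receptor), Pdgfrl and Itgbl1 completed the 15 genes, with medians of 2.22 to 3.44. Igf1, named after its values were seen, had a median of 2.37 but was higher in 4 of 5 libraries.

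On the lower side stood genes of the adipocyte lineage. Fabp4, the fatty acid carrier of adipocytes and their precursors, had 0, 0 and 1 UMIs in Ikkb_cKO members and 6 and 29 in WT members. In other fibroblasts it had 2290, 1358 and 59.9 CPM in Ikkb_cKO and 3277 and 2839 CPM in WT. Of 10 markers of the Fabp4 class, 8 were lower in members in every library: Fabp4, Cd36 (a fatty acid receptor), Lpl (lipoprotein lipase), Pparg (the regulator of adipogenesis), Plin2, Car3, Apoe and Ebf1. Lpl had 383, 363 and 233 CPM in Ikkb_cKO members and 398 and 524 CPM in WT members, with a median log2 difference of -2.33. Summed, the 10 markers had 1829, 826 and 903 CPM in Ikkb_cKO members and 1584 and 1424 CPM in WT members. Fibroblasts with Pi16 or Dpp4 were also low, at 1145, 1010 and 1487 CPM in Ikkb_cKO and 1498 and 1301 CPM in WT. The low level is thus shared with that class. Outside that list, Sdc1 (a heparan sulfate proteoglycan, -2.87), Col18a1 (a basement membrane collagen, -2.34), Adam12 (-2.19), Tnfaip2 (-1.74) and the imprinted RNA H19 (-1.72) were lower in all 5 libraries. Against other fibroblasts matched for UMIs per cell, the median differences of all these genes and of those higher in members kept their sign: 2.30 for Eln, 3.06 for Mfap4, 4.17 for Myoc and -7.03 for Fabp4.

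The members were also compared among themselves by Thbs4. The 118 cells with a Thbs4 UMI and the 163 without were compared in the 3 libraries with at least 10 cells on each side, a split chosen after the data were seen and given without a test. Of 2102 genes compared, 353 were higher and 293 were lower with Thbs4 in all 3 libraries. How many would keep one sign without any link to Thbs4 was not tested. The genes below are among the 8 with the largest median difference on each side of these, a choice that fixes their direction there. Hmcn2 stood at 461 CPM with Thbs4 and 77.1 CPM without in Ikkb_cKO library 3, at 1043 and 251 CPM in WT library 1, and at 862 and 137 CPM in WT library 2. Smoc2 had 448 and 199 CPM, 1375 and 403 CPM, and 1224 and 285 CPM in the same order of libraries. The matrix genes Adamtsl2 and Col8a1 (a short-chain collagen) were also on this side. On the other side, Cxcl12, a chemokine that binds CXCR4, had 527 CPM with Thbs4 and 964 CPM without in Ikkb_cKO library 3, 121 and 675 CPM in WT library 1, and 196 and 864 CPM in WT library 2. Ctla2a followed at 13.2 and 25.7 CPM (1 and 4 UMIs), 26.3 and 297 CPM, and 6.63 and 369 CPM. In Ikkb_cKO libraries 1 and 2, with 5 cells with Thbs4 each, Ctla2a went the other way, at 292 and 348 CPM with Thbs4 and 0 UMIs without. Hmcn2 had 522 CPM with and 1151 CPM without in Ikkb_cKO library 2. Igfbp3 (an IGF-binding protein), Plaur (the urokinase receptor) and Pappa2 (a protease of IGF-binding proteins) were lower with Thbs4 too. The share of members with a Thbs4 UMI was 45.5%, 41.7% and 28.3% in Ikkb_cKO and 44.4% and 47.0% in WT.

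**Figure D3:**
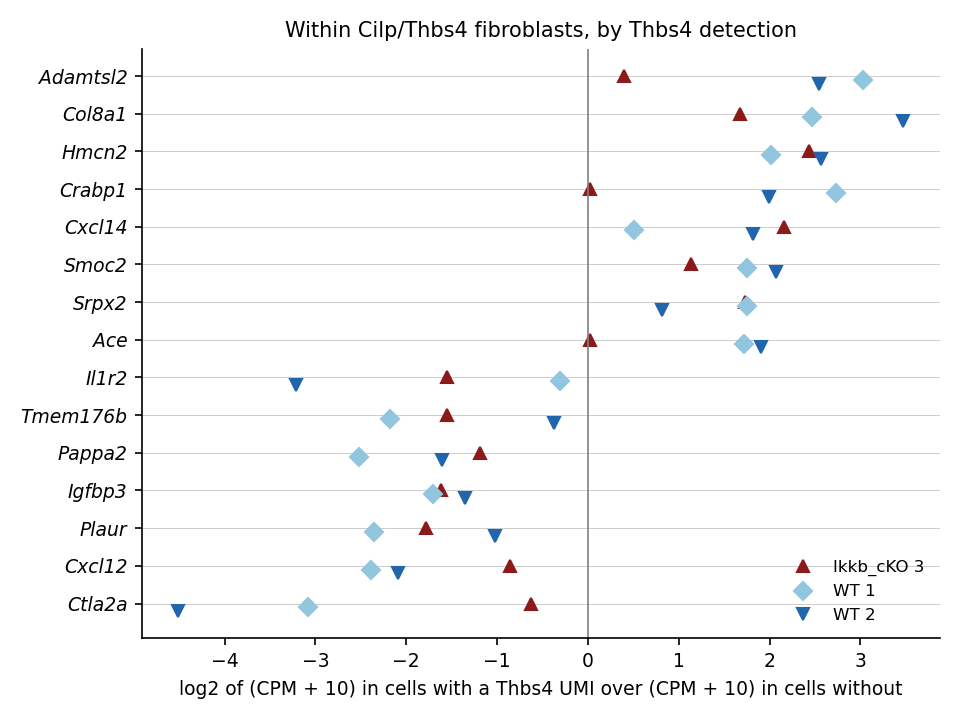
Within Cilp/Thbs4 fibroblasts, log2 of CPM + 10 in cells with a Thbs4 UMI over CPM + 10 in cells without, in the 3 libraries with at least 10 cells on each side, 1 point per library. Hmcn2 and Smoc2 lie to the right in all 3 libraries and Ctla2a, Cxcl12 and Igfbp3 to the left.

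The genotype comparison asked which genes of this class differed in mice with Ikkb deleted in the Prx1 lineage. UMIs were summed over the members of each library and tested by edgeR's quasi-likelihood method, with Benjamini-Hochberg adjusted p-values over the 3438 genes that passed the filter on low counts. Of these, 202 (5.88%) were higher and 199 (5.79%) were lower in Ikkb_cKO at an adjusted p under 0.05, in all 401 genes (11.7%). The genotypes did not overlap in 37.3% of tested genes, and the median log2 fold change of all genes was -0.04. The values below are normalised CPM, scaled to the counts of the tested genes by TMM. The count rests on the libraries used: 143 genes were called without Ikkb_cKO library 3 (95 of them among the 401), 29 without WT library 1 and 12 without WT library 2, with the lone WT library then assumed to vary like the Ikkb_cKO libraries. In bulk sums like these, a changed mix of cells within the class and a changed level per cell cannot be told apart.

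**Figure D4:**
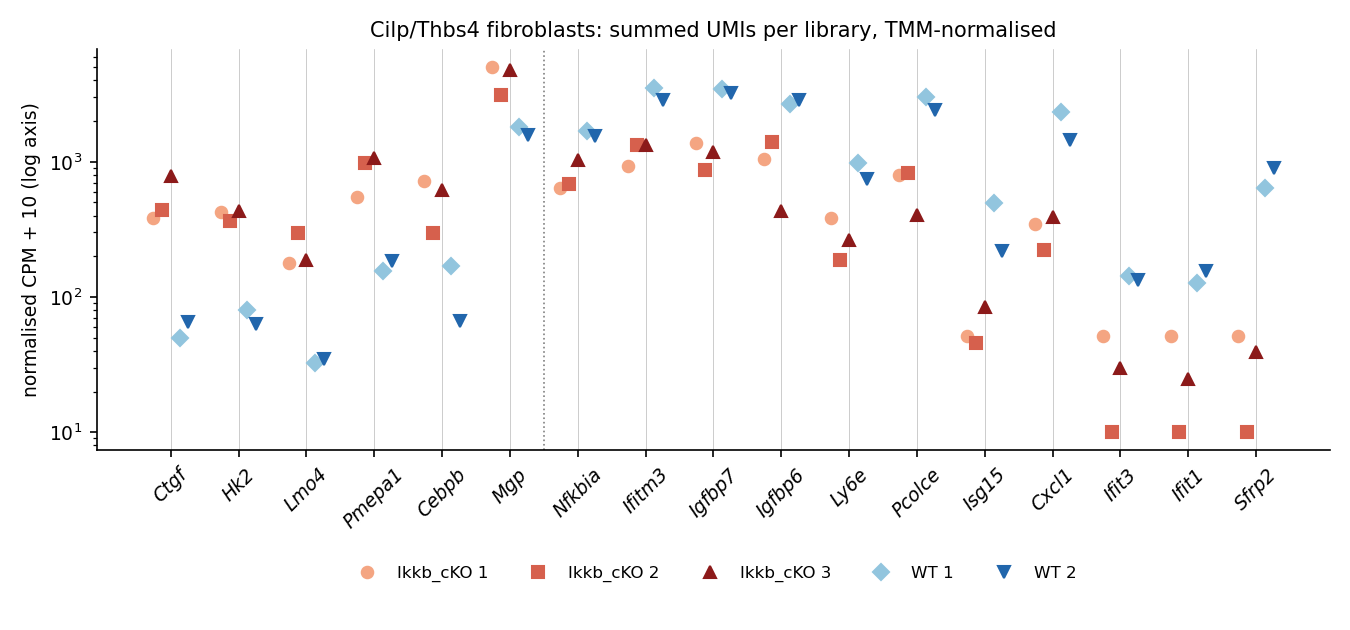
Normalised CPM + 10 (log axis) of 17 genes in Cilp/Thbs4 fibroblasts, 1 point per library. Left of the dotted line the 3 Ikkb_cKO libraries lie above both WT libraries, and right of it below them. Points at 10 are libraries with 0 UMIs of the gene.

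Ctgf, a secreted matricellular protein and a classical target of TGF-beta and YAP, led the rises. It stood at 376, 429 and 772 normalised CPM in Ikkb_cKO libraries 1, 2 and 3 and 40.1 and 55.2 in WT libraries 1 and 2. Every Ikkb_cKO library lay above both WT libraries, and the log2 fold change was 3.61 (SE 0.37, edgeR adjusted p = 0.000157). Pmepa1, a membrane protein that TGF-beta induces and that restrains its signalling, had 543, 965 and 1047 in Ikkb_cKO and 146 and 174 in WT (log2 2.47, SE 0.34, edgeR adjusted p = 0.00165). Hk2, the hexokinase that starts glycolysis, had 418, 357 and 423 in Ikkb_cKO and 70.3 and 53.4 in WT (log2 2.73, SE 0.31, edgeR adjusted p = 0.000329). The nucleotide kinase gene Nme1 was as even within the groups, at 125, 143 and 138 in Ikkb_cKO and 20.1 and 21.4 in WT (log2 2.69, SE 0.39, edgeR adjusted p = 0.00172). Lmo4, a LIM-domain cofactor of transcription, had 167, 286 and 177 in Ikkb_cKO and 22.6 and 24.9 in WT (log2 2.98, SE 0.41, edgeR adjusted p = 0.00165). Cebpb, a transcription factor of inflammation and adipogenesis, had 710, 286 and 610 in Ikkb_cKO and 158 and 56.9 in WT (log2 2.40, SE 0.43, edgeR adjusted p = 0.00768). None of these genes overlapped between the genotypes, which the rule that named them required. Of all tested genes, 13.7% were higher in Ikkb_cKO without overlap. Ctgf stayed called without any 1 library. Hk2 and Lmo4 lost the call without WT library 2, Pmepa1 and Nme1 without either WT library, and Cebpb without WT library 2 or Ikkb_cKO library 3.

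Other rises lost the call without Ikkb_cKO library 3. Hes1, a Notch-responsive repressor, stood at 41.8, 143 and 379 normalised CPM in Ikkb_cKO and 20.1 and 30.3 in WT (log2 3.47, SE 0.47, edgeR adjusted p = 0.00165), a call lost without Ikkb_cKO library 3. Cyp26b1, which degrades retinoic acid, Hspa1b, an inducible heat shock chaperone, Cdh13 (T-cadherin) and Cpne8 had log2 fold changes of 3.27, 3.12, 2.98 and 2.42, and all lost the call without that library. Without it the log2 fold changes were 1.94 for Hes1, 1.79 for Cyp26b1, 1.38 for Hspa1b, 2.77 for Cdh13 and 2.34 for Cpne8, whose levels were even across the Ikkb_cKO libraries (83.5, 71.5 and 88.5, against 15.1 and 16.0 in WT). Cyp26b1 also lost it without WT library 2, and Hspa1b, Cdh13 and Cpne8 without either WT library. Tob1, an antiproliferative protein, followed at 2.78, lost it without either WT library and was not tested without Ikkb_cKO library 3. Mgp, named here after its values were seen, had 4969, 3110 and 4798 normalised CPM in Ikkb_cKO and 1804 and 1578 in WT (log2 1.35, SE 0.28, edgeR adjusted p = 0.00958). It kept the call without Ikkb_cKO library 3 and lost it without either WT library.

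Secreted Wnt modulators and IGF regulators were among the largest falls. Sfrp2, a secreted Frizzled-related protein that binds Wnt ligands, had 1, 0 and 6 UMIs in Ikkb_cKO members and 249 and 499 in WT members. Those counts correspond to 41.8, 0 and 29.5 normalised CPM in Ikkb_cKO and 625 and 888 in WT. No Ikkb_cKO library came near a WT library, and the log2 fold change was -4.78 (SE 0.49, edgeR adjusted p = 0.000157), called without any 1 library. Sfrp4, of the same family, had 0, 4 and 3 UMIs in Ikkb_cKO and 77 and 220 in WT (log2 -3.34, SE 0.69, edgeR adjusted p = 0.0115). Of 5 Wnt modulators tested, these 2 fell and Dkk3 rose (log2 1.93), against 5.79% and 5.88% of all genes. Dkk3 had 0 UMIs in Ikkb_cKO library 2, so its groups overlapped. It lost the call without either WT library and was not tested without Ikkb_cKO library 3. Pappa2, a protease that cuts IGF-binding proteins and so frees IGF, had 0, 2 and 2 UMIs in Ikkb_cKO and 61 and 143 in WT (log2 -3.66, SE 0.64, edgeR adjusted p = 0.00586). Igfbp7, a secreted IGF-binding-like protein, had 1378, 858 and 1165 normalised CPM in Ikkb_cKO and 3445 and 3219 in WT (log2 -1.55, SE 0.27, edgeR adjusted p = 0.00555). Igfbp6, a carrier that prefers IGF-II, had 1044, 1394 and 423 in Ikkb_cKO and 2662 and 2838 in WT (log2 -1.65, SE 0.39, edgeR adjusted p = 0.0182). In the IGF list, 3 of 10 tested genes fell (5.79% of all genes) and none rose, with a median log2 fold change of -0.74 beside -0.04 over all genes. Igf1, the growth factor itself, had 710, 1251 and 187 in Ikkb_cKO and 1234 and 1568 in WT, with overlap (log2 -1.19, SE 0.65, edgeR adjusted p = 0.254). Sfrp4 and Pappa2 lost the call without WT library 2 or Ikkb_cKO library 3 (log2 -1.88 and -2.35 without the last), Igfbp6 and Igfbp7 without either WT library.

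Pcolce, an enhancer of the enzyme that trims procollagen, had 793, 822 and 393 normalised CPM in Ikkb_cKO and 3023 and 2417 in WT. The groups were far apart, and the log2 fold change was -2.15 (SE 0.33, edgeR adjusted p = 0.00305). It was named after its values were seen and, with Ctgf, was called under all 22 alternatives. The rest of the 12 largest falls were genes of few counts. Kcnj8, a subunit of a potassium channel, had 0 UMIs in all Ikkb_cKO members and 23 and 41 in WT, at least 5.28-fold lower by a floor of 3 counts over the group. It is also a marker of mural cells, the 1 called gene of 3 such markers tested, against 5.79% of all genes that fell. Mest, an imprinted gene, had 0, 0 and 1 UMIs in Ikkb_cKO and 59 and 43 in WT, a WT-over-Ikkb_cKO ratio of 25.2 per UMI (95% counting interval 4.43 to 1006). The corresponding ratios were 21.3 for G0s2, an inhibitor of lipolysis, 18.5 for Vtn (vitronectin), 18.1 for Ndrg2, 11.7 for Rtl8c, 11.5 for the chemokine gene Cxcl9 and 11 for Hmox2 (haem oxygenase 2), with lower bounds of 2.96 to 3.72. Ptgis, the prostacyclin synthase, had 0, 3 and 1 UMIs in Ikkb_cKO and 62 and 126 in WT (log2 -3.54, SE 0.69, edgeR adjusted p = 0.00834). All of these but Pcolce lost the call without Ikkb_cKO library 3. Ptgis and Cxcl9 also lost it without WT library 2, and G0s2, Rtl8c and Hmox2 without WT library 1. Not every gene was tested in all 5 fits that left out 1 library. Kcnj8, Vtn and Ndrg2 were tested in 3 of them, and Mest, G0s2, Rtl8c, Cxcl9 and Hmox2 in 4.

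Of 20 interferon-response genes tested, 10 fell and none rose. In all, 17 had a negative log2 fold change, with a median of -1.31 beside -0.04 over all tested genes, of which 5.79% fell. Ifitm3, a membrane protein that restricts viral entry, was the most abundant of those named here, at 919, 1323 and 1318 normalised CPM in Ikkb_cKO and 3505 and 2860 in WT (log2 -1.40, SE 0.27, edgeR adjusted p = 0.00798). Ly6e, a GPI-anchored protein, had 376, 179 and 256 in Ikkb_cKO and 971 and 737 in WT (log2 -1.70, SE 0.35, edgeR adjusted p = 0.00913). The ubiquitin-like modifier Isg15 had 41.8, 35.7 and 73.7 in Ikkb_cKO and 484 and 208 in WT (log2 -2.40, SE 0.49, edgeR adjusted p = 0.00947). Ifit1 and Ifit3, sensors of foreign RNA and their partners, had 1, 0 and 3 and 1, 0 and 4 UMIs in Ikkb_cKO against 47 and 82 and 53 and 69 in WT. Their log2 fold changes were -3.04 and -2.67. Irf1 and Irf7 (interferon regulatory factors), Bst2 (tetherin), Ifi27l2a and Rtp4 also fell. The count of falls was 6 without Ikkb_cKO library 3, 0 of 17 tested without WT library 1 and 2 of 19 without WT library 2, and the medians were then -1.37, -1.36 and -1.65. Leaving out cells with 3 or more UMIs of other lineages dropped Ikkb_cKO library 1 (under 10 members) and gave 0 falls of 11 tested, with a median of -1.13. Summed endothelial markers were at 0 to 8.64 CPM in Ikkb_cKO members and 50.8 to 55.8 CPM in WT members, the myeloid ranges overlapped, and their part in these falls was not tested.

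Of 19 NF-kB target genes tested, 4 fell and 1 rose, against 5.79% and 5.88% of all genes, with a median log2 fold change of -0.29. Cxcl1, a neutrophil chemokine and a classical target, had 334, 214 and 379 normalised CPM in Ikkb_cKO and 2306 and 1443 in WT (log2 -2.51, SE 0.34, edgeR adjusted p = 0.00165), and stayed called without any 1 library. Cxcl10, a chemokine of both pathways, had 1, 0 and 20 UMIs in Ikkb_cKO and 111 and 212 in WT (log2 -2.08, SE 0.43, edgeR adjusted p = 0.00966). Irf1 and Sod2, the mitochondrial superoxide dismutase, had log2 fold changes of -1.89 and -1.35, and the chemokine gene Ccl8 rose by 1.76 with overlap between the groups. Among 10 pathway components tested, Nfkbia, which encodes the inhibitor IκBα, had 626, 679 and 1018 in Ikkb_cKO and 1671 and 1532 in WT (log2 -0.97, SE 0.29, edgeR adjusted p = 0.0442). The TNF receptor gene Tnfrsf1a also fell (-1.83) and Tab2, an adaptor of the kinase TAK1, rose (2.32). Il6, a cytokine and target, had 418, 572 and 393 in Ikkb_cKO and 384 and 240 in WT (log2 0.51, SE 0.33, edgeR adjusted p = 0.31). Cxcl10 lost the call without WT library 2, and Irf1 and Nfkbia without either WT library. Nfkbia lost it also without Ikkb_cKO library 1 or 2, while Sod2, Ccl8, Tnfrsf1a and Tab2 lost it without Ikkb_cKO library 3 or either WT library.

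The proximal promoters of 5 of these fallen genes are printed because they carry the motifs through which interferon and NF-kB signals are known to act. Each is the 250 bases before the RefSeq gene start (GRCm38.p6), 5′ to 3′ on the gene's strand, with motif matches in capitals: for Ifit1, Ifit3 and Isg15 the interferon-stimulated response element, searched as GAAA, any 2 bases and GAAA on both strands, and for Cxcl1 and Cxcl10 the kappa-B motif. Matches overlap in Isg15 (3 matches) and in Cxcl1 (2 matches). Only the motif named for each gene is in capitals. The Cxcl10 sequence also holds a match to the interferon motif near its 5′ end, left in lower case. The regions are chr19:34640639-34640888 (plus strand) for Ifit1, chr19:34583279-34583528 (plus) for Ifit3, chr4:156200819-156201068 (minus) for Isg15, chr5:90890995-90891244 (plus) for Cxcl1 and chr5:92348890-92349139 (minus) for Cxcl10.
Ifit1: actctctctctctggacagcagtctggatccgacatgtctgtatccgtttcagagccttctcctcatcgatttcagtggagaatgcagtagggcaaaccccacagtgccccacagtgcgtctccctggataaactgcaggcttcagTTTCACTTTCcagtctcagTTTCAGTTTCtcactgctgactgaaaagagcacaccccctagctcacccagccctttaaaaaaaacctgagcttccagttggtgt
Ifit3: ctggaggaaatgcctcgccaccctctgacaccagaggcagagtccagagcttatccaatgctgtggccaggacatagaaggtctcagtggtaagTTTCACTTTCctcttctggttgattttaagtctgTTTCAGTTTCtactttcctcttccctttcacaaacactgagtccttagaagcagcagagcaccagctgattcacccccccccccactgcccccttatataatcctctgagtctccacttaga
Isg15: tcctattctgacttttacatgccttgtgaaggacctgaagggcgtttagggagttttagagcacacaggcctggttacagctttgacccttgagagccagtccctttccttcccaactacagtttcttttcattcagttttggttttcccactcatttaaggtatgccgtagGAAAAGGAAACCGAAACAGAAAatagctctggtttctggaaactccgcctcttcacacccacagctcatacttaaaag
Cxcl1: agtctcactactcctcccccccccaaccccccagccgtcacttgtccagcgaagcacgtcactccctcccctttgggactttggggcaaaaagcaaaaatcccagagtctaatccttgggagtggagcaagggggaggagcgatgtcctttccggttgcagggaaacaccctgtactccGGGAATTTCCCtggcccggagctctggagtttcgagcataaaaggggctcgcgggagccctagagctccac
Cxcl10: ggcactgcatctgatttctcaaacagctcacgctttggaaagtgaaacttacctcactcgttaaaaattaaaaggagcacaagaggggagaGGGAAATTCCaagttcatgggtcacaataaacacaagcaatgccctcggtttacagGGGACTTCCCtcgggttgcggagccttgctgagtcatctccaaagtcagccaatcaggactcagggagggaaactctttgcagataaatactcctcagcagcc
Over all 32851 promoters in the table, 978 (2.98%) held the interferon motif and 1281 (3.90%) the kappa-B motif in this window. Of the 7 fallen interferon genes with a promoter in the table, 4 held the interferon motif, and of all 17 tested genes of that list, 7 did. All 4 fallen NF-kB targets held the kappa-B motif, and 7 of the 15 tested targets did. The interferon motif was held by 1 of these 4 fallen targets. A match describes these letters and does not show binding.

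Of 20 elastic fibre genes tested, 2 fell (10%, against 5.79% of all genes) and none rose, with a median log2 fold change of -0.09. Mfap2, a microfibril-associated glycoprotein, had 418, 286 and 526 normalised CPM in Ikkb_cKO and 916 and 1194 in WT (log2 -1.27, SE 0.33, edgeR adjusted p = 0.0263). Efemp2 (fibulin-4, which links elastin and lysyl oxidase) had 125, 71.5 and 63.9 in Ikkb_cKO and 278 and 235 in WT (log2 -1.82, SE 0.37, edgeR adjusted p = 0.00958). Eln did not pass: its log2 fold change was 1.57 (SE 0.58, edgeR adjusted p = 0.124), with 2798, 12618 and 5860 in Ikkb_cKO and 2017 and 2765 in WT. Mfap4 had 1211, 1859 and 4046 in Ikkb_cKO and 2767 and 2742 in WT (log2 -0.15, SE 0.38, edgeR adjusted p = 0.819), and Lox had 960, 1001 and 526 in Ikkb_cKO and 361 and 388 in WT (log2 1.04, SE 0.34, edgeR adjusted p = 0.0614). In the TGF-beta list, Ctgf and Smad7, an inhibitor of the pathway, rose among 13 tested genes (15.4%, against 5.88% of all genes) and none fell (median 0.41). Smad7 rested on 0, 3 and 27 UMIs in Ikkb_cKO and 5 and 22 in WT, with overlap. No BMP gene of 10 passed. Mfap2 lost its call without WT library 1, WT library 2 or Ikkb_cKO library 2, and Efemp2 without Ikkb_cKO library 3 or either WT library. Smad7 lost it without either WT library and was not tested without Ikkb_cKO library 3.

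Other matrix lists held few calls. For comparison, 5.88% of all tested genes rose and 5.79% fell. Of 7 small leucine-rich proteoglycans and 4 collagen VI genes tested, none passed at the adjusted threshold. Among 12 other collagens, Col11a1 (a fibrillar collagen of cartilage and tendon) had 3, 0 and 33 UMIs in Ikkb_cKO and 3 and 1 in WT (log2 4.89, SE 0.70, edgeR adjusted p = 0.00165), with overlap, and Col18a1 had 1, 0 and 8 UMIs in Ikkb_cKO and 33 and 87 in WT (log2 -1.79, SE 0.55, edgeR adjusted p = 0.0498). Of 16 proteases and inhibitors, Adamtsl1 alone fell (log2 -2.05). Of 7 genes of type 2 signalling tested, the cytokine-signalling suppressors Socs1 and Socs2 fell (log2 -1.69 and -1.28). Ccl11, the eosinophil chemokine, had 83.5, 643 and 393 normalised CPM in Ikkb_cKO and 700 and 730 in WT (log2 -0.89, SE 0.41, edgeR adjusted p = 0.158). Col11a1 lost its call without WT library 2 and was not tested without Ikkb_cKO library 3. Col18a1 and Socs2 were called in none of the fits that left out 1 library and tested them, and Adamtsl1 and Socs1 lost the call without Ikkb_cKO library 3 or either WT library.

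Stress and general transcripts were measured beside these groups, and their part in the results was not tested. Over all tested genes, 5.88% rose and 5.79% fell. Of 21 immediate early and stress genes, Hspa1b and Fosl1 rose (9.52%) and Fos fell (4.76%, log2 -0.96), with a median of -0.28. Of 84 cytosolic ribosomal protein genes, 7 rose (8.33%) and 13 fell (15.5%), with a median of -0.27. The rises were led by the short transcripts Rps29 and Rps28 (log2 1.66 and 1.3), with Rps29 at 5345, 6470 and 7001 normalised CPM in Ikkb_cKO and 2158 and 1831 in WT. Of 13 mitochondrially encoded genes, mt-Nd1, mt-Nd2, mt-Nd3 and mt-Nd4 rose (30.8%) and none fell (median 0.51). Barcodes were kept by the summed share of these genes (no more than 10%), so these calls come from cells chosen in part by them. Without either WT library, Hspa1b, Fosl1, Fos, Rps29, Rps28 and the 4 mitochondrial genes were not called. Fos, mt-Nd1 and mt-Nd2 were not called without Ikkb_cKO library 2, nor was Hspa1b without Ikkb_cKO library 3. Fosl1 was not tested without Ikkb_cKO library 3. Of 5 tested markers of the Pi16/Dpp4 class, the semaphorin gene Sema3c rose and Anxa3 fell. Of 5 tested markers of the Fabp4 class none passed. Of the Coch class markers, Mgp rose and Spon1 and Clec3b fell among 4 tested.

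Many of these genes also differed in the other fibroblasts of the same libraries. There, 3129 of 8801 tested genes (35.6%) were called. Of the 401 genes called in members, 394 were also tested in other fibroblasts, and 297 of them were called there in the same direction and 3 in the opposite one. Ctgf had a log2 fold change of 3.61 in members and 3.38 in other fibroblasts, and Hk2 had 2.73 in members and 3.15 in other fibroblasts. Ifitm3 had -1.40 in members and -1.11 in other fibroblasts, and Igfbp7 had -1.55 and -1.08. For none of these 4 genes was the difference between the classes called. In the interferon list, 14 of 30 genes fell and 5 rose in other fibroblasts, against 16.9% and 18.6% of all genes tested there.

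**Figure D5:**
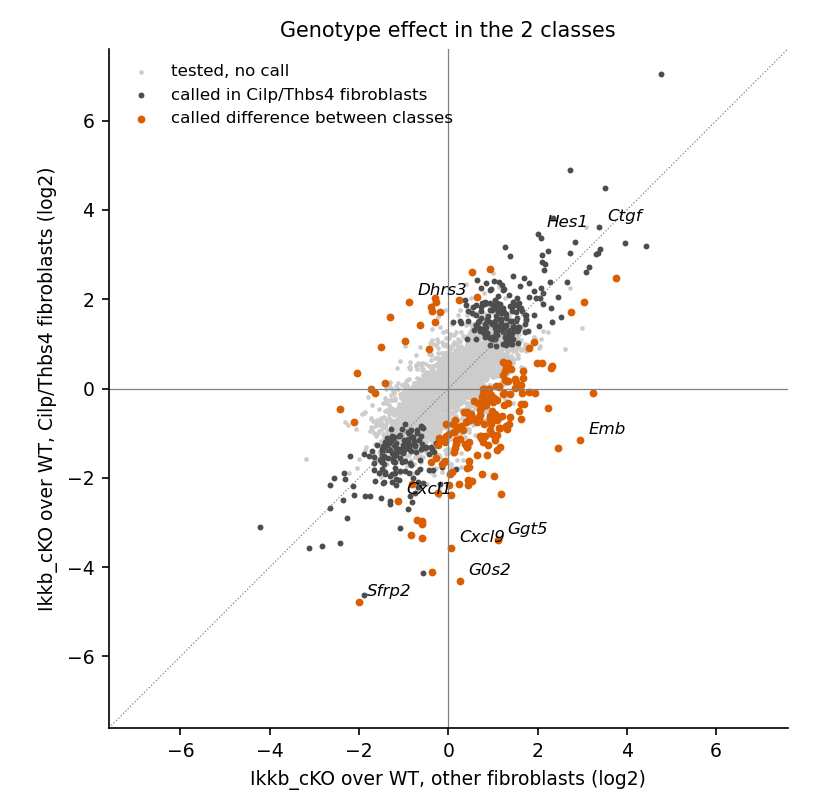
Log2 fold change of Ikkb_cKO over WT in Cilp/Thbs4 fibroblasts (vertical) against other fibroblasts (horizontal), 1 point per gene tested in both. The dotted line marks equal effects, and coloured points are genes with a called difference between the classes. Cxcl9, Ggt5, G0s2 and Sfrp2 lie below the line and Dhrs3 above it.

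The difference itself was tested as a class-by-genotype term in edgeR over 6283 genes. It was called for 213 genes (3.39%): 35 genes that were more positive (0.557%) and 178 that were more negative (2.83%) in members than in other fibroblasts. The median over all genes was -0.14 (0.02 with DESeq2's size factors, which gave 53 and 148 genes). Of the 401 genes called in members, 51 had a called difference. Sfrp2 fell by 4.78 in members and by 2.01 in other fibroblasts (difference -2.44, edgeR adjusted p = 0.00144). Pcolce fell by 2.15 and by 0.81 (difference -1.50, edgeR adjusted p = 0.000682), and Cxcl1 fell by 2.51 and by 1.12 (difference -1.38, edgeR adjusted p = 0.00572). Il6 had a log2 fold change of 0.51 in members, which did not pass, and rose by 2.33 in other fibroblasts (edgeR adjusted p = 0.000363), a difference of -1.87 (edgeR adjusted p = 5.46e-06). Among the genes that led the class profile, the differences were -1.58 for Smoc2, -1.77 for Hmcn2 and -2.48 for Rrad. Without either WT library, the differences of Sfrp2, Pcolce, Cxcl1, Il6, Smoc2 and Hmcn2 were not called, nor was that of Rrad without WT library 2 or that of Cxcl1 without Ikkb_cKO library 2.

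Among the largest negative differences, Emb and Ggt5 were called without any 1 library. Emb (embigin, a membrane glycoprotein) had 4, 2 and 3 UMIs in Ikkb_cKO members and 43 and 36 in WT members, against 18, 20 and 100 UMIs in Ikkb_cKO and 66 and 77 in WT for the other fibroblasts. As CPM, members stood at 170, 66.1 and 13.0 in Ikkb_cKO and 91.0 and 52.9 in WT, and other fibroblasts at 70.0, 69.3 and 82.0 in Ikkb_cKO and 9.96 and 10.2 in WT. The difference was -4.25 (SE 0.53, edgeR adjusted p = 2.64e-12), and without Ikkb_cKO library 3 it was -2.46. Ggt5, a gamma-glutamyltransferase of leukotriene metabolism, had 3, 0 and 0 UMIs in Ikkb_cKO members and 47 and 81 in WT members (difference -4.09, SE 0.65, edgeR adjusted p = 2.05e-07). As CPM, members stood at 128, 0 and 0 in Ikkb_cKO and 99.4 and 119 in WT, so Ikkb_cKO library 1 lay above both WT libraries. The other fibroblasts stood at 257, 267 and 76.3 in Ikkb_cKO and 81.6 and 87.2 in WT. Without Ikkb_cKO library 3 the difference for Ggt5 was -2.98. Per UMI of the members, summed over the libraries of a genotype, WT over Ikkb_cKO was a ratio of 10.6 for Ggt5 (95% counting interval 3.53 to 51.8). The fitted differences of G0s2 (-4.77), Pappa2 (-4.57), Cxcl9 (-3.88) and the bicarbonate transporter gene Slc4a4 (0 UMIs in Ikkb_cKO members and 8 and 7 in WT members) lost the call without Ikkb_cKO library 3 or WT library 2. Such fitted values depend on the prior count where a group holds few UMIs. All but G0s2 also lost the call without WT library 1, and Slc4a4 without Ikkb_cKO library 2.

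The largest positive differences that are reported lost the call without Ikkb_cKO library 3. Acta2, smooth muscle actin and the marker of myofibroblasts and mural cells, had 0, 0 and 47 UMIs in Ikkb_cKO members and 12 and 6 in WT members. In the other fibroblasts it had 3, 2 and 22 UMIs in Ikkb_cKO and 1333 and 1974 in WT, so that the low level there in Ikkb_cKO forms part of the difference of 6.91 (SE 0.56, edgeR adjusted p = 4.05e-31). In Ikkb_cKO library 3, 11 of 60 members (18.3%) held an Acta2 UMI. Tagln, an actin-binding protein of the same cells, had 0, 1 and 29 UMIs in Ikkb_cKO members and 11 and 12 in WT members (difference 6.55), and Ednra, an endothelin receptor, 0, 0 and 40 UMIs and 2 and 11 (difference 4.96). Without Ikkb_cKO library 3 the fitted differences were -3.23 for Acta2, 6.4 for Tagln and -4.61 for Ednra, none of them called. Dhrs3 (2.84) and Acot7 (2.70) were not called without that library or either WT library, although Dhrs3 in members was at 128, 66.1 and 90.7 CPM in Ikkb_cKO and 14.8 and 26.4 CPM in WT. The mural list, to which Acta2 belongs, also holds Kcnj8, whose fitted difference was negative (-9.50, edgeR adjusted p = 0.0081) with 0 UMIs in Ikkb_cKO members. Summed mural markers in members were 128 to 363 CPM in Ikkb_cKO and 176 to 178 CPM in WT, and their part was not tested.

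The genes that define the class were also measured over all fibroblasts, where membership plays no part. There 3740 of 10443 genes (35.8%) were called. Thbs4 had 60.9, 44.1 and 66.0 normalised CPM in Ikkb_cKO and 135 and 142 in WT. Its means were 57.0 ± 11.5 (SD, n = 3) and 139 ± 5.34 (SD, n = 2), without overlap, and it fell by 1.27 on the log2 scale (SE 0.19, edgeR adjusted p = 0.00418), a call lost without WT library 2. Cilp had 139, 169 and 388 in Ikkb_cKO and 226 and 218 in WT (log2 0.08, SE 0.44, edgeR adjusted p = 0.902). Eln had 416, 741 and 1928 in Ikkb_cKO and 574 and 761 in WT (log2 0.63, SE 0.64, edgeR adjusted p = 0.476). Mfap4 had 144, 193 and 1530 in Ikkb_cKO and 519 and 547 in WT (log2 0.24, SE 1.03, edgeR adjusted p = 0.876). For Cilp, Eln and Mfap4 the high value of Ikkb_cKO library 3 set the sign: without it the log2 fold changes were -0.52, -0.20 and -1.66. Prrx1, whose enhancer drives the Cre, had 306, 305 and 262 in Ikkb_cKO and 156 and 152 in WT (log2 0.91, SE 0.14, edgeR adjusted p = 0.00434), a call lost without either WT library. In members it had a log2 fold change of 0.88 (SE 0.29, edgeR adjusted p = 0.0624).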

How the data were processed

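There were 5 libraries, 3 Ikkb_cKO and 2 WT, each from pooled ventral skin of 2 mice. The deposited files hold raw UMI counts per gene and barcode, made with Cell Ranger 1.3.0 and the mm10 build (both named in the submitters' processing notes), while the header of each matrix names software version 3.0.1. Total counts per library were 2163166, 2350022 and 9738296 in Ikkb_cKO and 14659158 and 16773096 in WT. The annotation holds 31053 genes. Depth differs between the genotypes and limits genes of few UMIs, and intervals and floors cover counting error only.

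Cells were kept and the class chosen as stated in the report, on UMIs as deposited. No doublet caller was run. Counts were summed over the cells of each library and class and tested with edgeR 4.0.16 (with limma 3.58.1) in R 4.3.3 (TMM, filterByExpr, robust quasi-likelihood fit, adjusted p under 0.05 over all genes tested). The marker genes used to choose the cells were left out of tests within classes. The mitochondrially encoded genes, which the filter on barcodes used as a sum, were tested. DESeq2 1.42.0 was used for alternatives. Python 3.11.15 with numpy 2.4.6, scipy 1.17.1, pandas 2.3.3 and matplotlib 3.10.9 did the rest. Gene positions came from GENCODE vM21 on GRCm38, and promoters from RefSeq on GRCm38.p6.

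The members and gene lists were chosen with earlier results of these data known. Genes were named by a rule: Cilp, Thbs4, Eln, Mfap4, Ikbkb and Prrx1, the 12 largest rises and falls past the threshold at an average log2 CPM of at least 5 without overlap, the 15 largest positive and 10 largest negative class differences of one sign in every library, up to 4 genes per list by smallest p, and the 6 largest class-by-genotype terms in each direction. The rankings omitted gene models, haemoglobin, ribosomal, mitochondrial and sex-linked genes. Pcolce, Isg15, Igf1, Il6, Ccl11, Coch, Mgp in the genotype test, the genes compared between cells with and without Thbs4, and the genes set side by side between the classes were chosen after their values were seen. Some genes that the rule picked are not reported here.

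The fits were tested on simulated counts with 200 genes changed. In members, 38.8%, 83.6% and 89.4% of genes changed 2-fold, 4-fold and 8-fold were called, with 1 false call of 142. For the difference between classes these shares were 14.9%, 61.2% and 81.8%, with 5 false calls of 110. These rates describe the simulated counts only. They do not give the rate of false calls in the measured libraries, where the Ikkb_cKO libraries differed unequally from each other. Deviations of same-numbered libraries from their group means correlated at 0.02 and -0.01 over genes in members. In all fibroblasts the correlations were 0.099 and -0.083. With 2 WT libraries the deviations of one mirror those of the other, so these values cannot decide whether the libraries were paired. The fit without a block for the number is reported.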

Additional observations from a re-analysis of the deposited data

Results flagged for a closer look

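Several genes met a formal rule for a difference between classes: their genotype effect in Cilp/Thbs4 fibroblasts differed from that in other fibroblasts by edgeR's class-by-genotype term. In all, 35 genes were more positive and 178 more negative in the members. Among the largest positive log2 differences were 6.91 for Acta2, 6.55 for Tagln, 4.96 for Ednra, 2.84 for Dhrs3 and 2.70 for Acot7. These 5 lost the call without Ikkb_cKO library 3, and for Acta2, Ednra and Acot7 the fitted sign then turned. Among genes whose log2 CPM averaged 5 or more over both classes, the largest negative differences were -8.74 for Slc4a4, -4.77 for G0s2, -4.57 for Pappa2, -4.25 for Emb, -4.09 for Ggt5 and -3.88 for Cxcl9. Of these, Emb and Ggt5 kept the call without any 1 library. Fitted values of genes at 0 UMIs in the Ikkb_cKO members, such as Slc4a4, depend on the prior count and are no bound.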

How the results depend on the processing

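The count of genes called between the genotypes in members (401) was 12 to 552 when 1 library was left out. It was 35 with a replicate block (Ikkb_cKO library 3 then adds nothing to the contrast), 65 with DESeq2's Wald test, 213 with a gate of 5 UMIs, 267 with a gate scaled to depth, 28 without cells holding 3 or more UMIs of other lineages, 16 with equal member numbers and 95 after thinning. With alternatives chosen after seeing the data it was 254 (Ikkb_cKO libraries 1 and 2 summed), 85 (both alike pairs summed) and 1402 (Ikkb_cKO library 3 alone). In all fibroblasts the count (3740) was 466 to 5629 with 1 library left out and 28 with both alike pairs summed. The count of differences between classes (213) was 13 to 263 with 1 library left out, 66 with the replicate block, 64 with the Wald test, 26 without cells of other lineages' UMIs, 95 with equal numbers and 3 after thinning. The difference in share (-1.42 points, Ikkb_cKO minus WT) was 0.936 among fibroblasts with the same exclusions, 0.734 with the scaled gate, 1.14 after thinning and -2.96 to -0.544 with 1 library left out. The alike pairs were WT libraries 1 and 2 and Ikkb_cKO libraries 1 and 2, and summing both pairs left a single WT sum. The causes were not tested.

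Signs turned for uncalled genes. Mfap4 in members (-0.15) was 0.0708 with the gate of 5 UMIs, 0.0788 with Ikkb_cKO libraries 1 and 2 summed, 0.49 with library 3 alone and -0.77 to 0.11 with 1 library left out. In all fibroblasts, leaving out 1 library gave -0.52 to 0.35 for Cilp, -0.20 to 1.01 for Eln, -1.66 to 0.71 for Mfap4 and -0.16 to 0.17 for Ikbkb. The replicate block gave -0.52 for Cilp, -0.24 for Eln and -1.66 for Mfap4. Leaving out cells of other lineages' UMIs gave -0.45 for Cilp and -0.50 for Mfap4. Without a filter Cilp was -0.00754 and Ikbkb -0.0909. Ikbkb was -0.00109 and -0.11 with looser and stricter cell filters and -0.0462 with both pairs summed. The class differences of Acta2, Ednra and Acot7 were -3.54, -3.81 and -5.84 with the replicate block, and -3.23 to 7.70, -4.61 to 6.27 and -6.03 to 3.18 with 1 library left out. Whether same-numbered libraries were paired could not be decided. Over single genes, 1062 values kept direction and side of the threshold, 396 lost the call, 12 gained it and 25 turned sign.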
